A study of Mus musculus with 88 samples.

Results

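The hearts compared here came from HET mice kept on chow: 9 mice killed at 43 days of age and 10 mice killed at 31 days, which is 19 of the 88 arrays of the series, chosen by genotype, diet and age in the sample titles. HET mice carry 1 working allele of Scarb1, the gene of the HDL receptor SR-BI, and no working Apoe (genotype SR-BI+/- apoE-/-), and so lack apolipoprotein E like every other mouse of the series. The study used them as the controls of dKO mice (SR-BI-/- apoE-/-), which develop coronary artery disease and heart failure between these ages, and its design text states that HET mice on chow show no detectable sign of coronary disease. Each whole heart was hybridised to 1 Affymetrix array, so the 43-day to 31-day difference concerns different mice, and fewer cells of a type cannot be told apart from less RNA per cell. Further groups used below were dKO chow hearts at 43 and 31 days (12 and 10 mice), dKO hearts of mice given the lipid-lowering drug probucol in the diet (6 and 8), HET hearts with probucol (2 and 3) and HET chow hearts at 21 days (9).

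Between weaning and young adulthood the mouse heart completes its postnatal growth. Fibroblasts, smooth muscle and endothelium lay down collagens and elastin early in life, and this synthesis declines as the matrix becomes long-lived and cross-linked. Cell division in the growing organ also subsides, and the animal as a whole takes on an adult pattern of detoxifying and hormone-responsive enzymes.

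The label was checked first. Scarb1 was present at both ages, at a deposited signal of 163 to 271 (median 196) at 43 days and 109 to 293 (median 169) at 31 days. Both Apoe probe sets were dim in most arrays, with medians of 2.46 and 7.06 at 43 days and of 1.82 and 6.31 at 31 days. Their highest values were 49.3 and 52.6 at 43 days and 9.56 and 19.1 at 31 days. Heart muscle markers were bright, with a median Myh6 signal of 6056 at 43 days and 6132 at 31 days. The sexes are not given in the labels; the Y-linked Eif2s3y exceeded Xist in 5 of 9 hearts at 43 days and in 6 of 10 at 31 days. Before scaling, the median signal of an array was 35.4 to 75.4 (median 42.8) at 43 days and 33.1 to 53.3 (median 38.3) at 31 days, so the older arrays tended to be brighter. The 88 arrays also fell into a larger set of 69 and a smaller set of 19 along the second component of the residuals, and the smaller set held 3 of 9 arrays at 43 days and 6 of 10 at 31 days. Signals below are scaled so that all arrays have the same median, and differences are on the log2 scale, 43 minus 31 days.

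Of 5684 genes tested, 73 (1.28%) differed between 43 and 31 days at a Benjamini-Hochberg adjusted p below 0.05 in limma, 9 of them higher (0.158%) and 64 lower (1.13%) in the older hearts. By size the falls were led by the spindle genes Prc1 and Nusap1, followed by Adam19, Rsad2, Cldn5 and Eln, and by p they were led by Eln, Cd93, Col4a1 and Marcks. The higher genes were a small mixed group led by size by Gsta3, Cxcl14, Ksr1 and Inmt. The lower genes had log2 differences of -1.72 to -0.31 and the higher ones of 0.50 to 1.93, and 47 of the 73 differed by at least 1.5-fold. At an unadjusted p below 0.05, 741 genes were lower (13%) and 138 higher (2.43%). Most genes leaned down, since 3875 of 5684 (68.2%) had a difference below 0 and the median over all genes was -0.10. In the deposited signals without scaling, that median was 0.07, and 18 genes passed, 7 higher and 11 lower, with all 73 genes keeping their sign. No gene had 43-day and 31-day signals that did not overlap at all. Leaving out 1 array at a time gave between 31 called genes, without the second 31-day heart, and 167, without the seventh, and 26 of the 73 were called in all 19 refits.

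**Figure D1:**
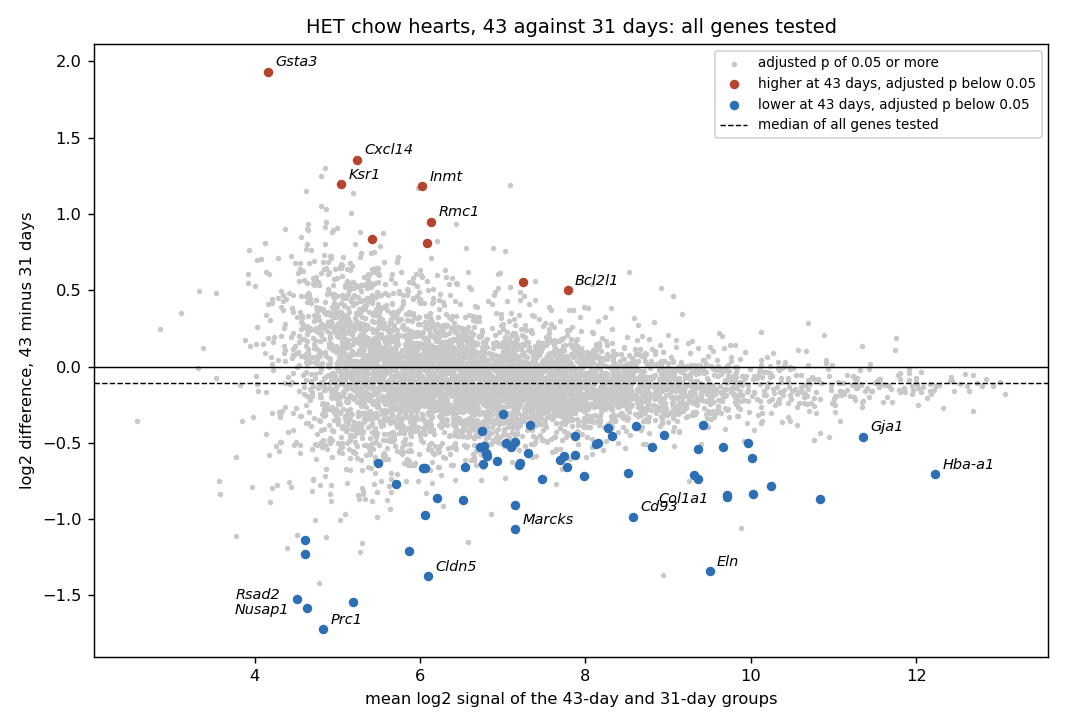
Log2 difference (43 minus 31 days, vertical axis) against the mean log2 signal of both ages (horizontal axis) for the 5684 genes tested in HET chow hearts. Red points are the 9 genes higher at 43 days and blue points the 64 lower at an adjusted p below 0.05; the dashed line marks the median of all genes, -0.10.

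The matrix list held the most calls. Elastin, some collagens of fibrils and of basement membranes, and some of the proteins that fold or bind them were lower in the older hearts. Of 40 tested genes of collagen and matrix synthesis, 13 fell (Col1a1, Col3a1, Col5a2, Col6a3, Col4a1, Col4a2, Col18a1, Eln, Sparc, Postn, Serpinh1, Mfap5 and Vcan) and none rose. The list's median was -0.30, against -0.10 for all genes, and 34 of the 40 lay below 0, where 68.2% of all genes did. Over all genes 1.13% were called lower. Its summed signal ranged from 13731 to 23423 (median 18779) at 43 days and from 18217 to 29812 (median 24072) at 31 days.

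Eln, which encodes the elastin precursor tropoelastin of the arterial wall and valves, had the smallest p of all genes. Its scaled signal was 267 to 852 (median 399) at 43 days and 778 to 1772 (median 1081) at 31 days. In 8 of 9 older hearts it lay below the lowest 31-day heart. The difference was -1.34 ± 0.16 (SE; adjusted p = 1.76e-09), a level 0.395 times that at 31 days, and a second Eln probe set gave -1.34. Eln passed within the 69-array set alone, at -1.27, and was -1.09 within the smaller set.

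Col1a1, the chain of type I collagen that gives fibrils their strength, had signals of 431 to 890 (median 673) at 43 days and 612 to 1667 (median 1099) at 31 days. Col3a1, which encodes the type III collagen of distensible tissue, had 310 to 721 (median 520) at 43 days and 534 to 996 (median 894) at 31 days. Every older heart lay below the highest 7 younger hearts for both genes. Col1a1 differed by -0.86 ± 0.17 (adjusted p = 0.00112) and Col3a1 by -0.71 ± 0.15 (adjusted p = 0.00441). The other probe sets pointed the same way, at -0.65 for Col1a1 and at -1.51 and -0.62 for Col3a1. Col1a2, the partner chain in type I collagen, did not follow, at -0.06 (adjusted p = 0.771). Sparc, a collagen-binding glycoprotein, had signals of 548 to 1459 (median 917) at 43 days and 961 to 2557 (median 1796) at 31 days, a difference of -0.78 ± 0.15 (adjusted p = 0.000929).

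Type IV collagen is the sheet-forming collagen of basement membranes, and its 2 main chains moved together. Col4a1 had signals of 555 to 1245 (median 791) at 43 days and 878 to 2045 (median 1401) at 31 days, a difference of -0.83 ± 0.14 (adjusted p = 0.000129). Col4a2 had 504 to 1195 (median 851) at 43 days and 939 to 1648 (median 1253) at 31 days, a difference of -0.60 ± 0.12 (adjusted p = 0.0027). These genes lie head to head on mouse chromosome 8, with annotated starts 21 bases apart on opposite strands (GRCm38.p6). Eln, Col1a1, Col3a1, Col4a1, Col4a2, Sparc and Mfap5 kept their calls whichever array was left out. Of these, Eln, Col1a1, Col4a1 and Sparc also passed on the deposited signals without scaling. Col3a1 (adjusted p = 0.104), Col4a2 (adjusted p = 0.06) and Mfap5 (adjusted p = 0.103) did not. In a fit of the 2 groups alone Col4a2 and Sparc did not pass. The calls of Col18a1, Col5a2, Col6a3, Postn, Serpinh1 and Vcan each ended without at least 1 array; without the ninth 43-day heart Col18a1 had an adjusted p of 0.0702, Col5a2 of 0.116, Col6a3 of 0.116 and Vcan of 0.104, and without the second 31-day heart Postn had 0.0961. Serpinh1, the collagen chaperone HSP47, had an adjusted p of 0.108 without the fourth 31-day heart. Mfap5 was -0.72 by its brightest probe set and 0.11 by its other. Col18a1 was -0.64 by its brightest probe set and -0.04 and -0.16 by its others. With the probe sets of a gene averaged, neither Mfap5 nor Col18a1 passed.

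**Figure D2:**
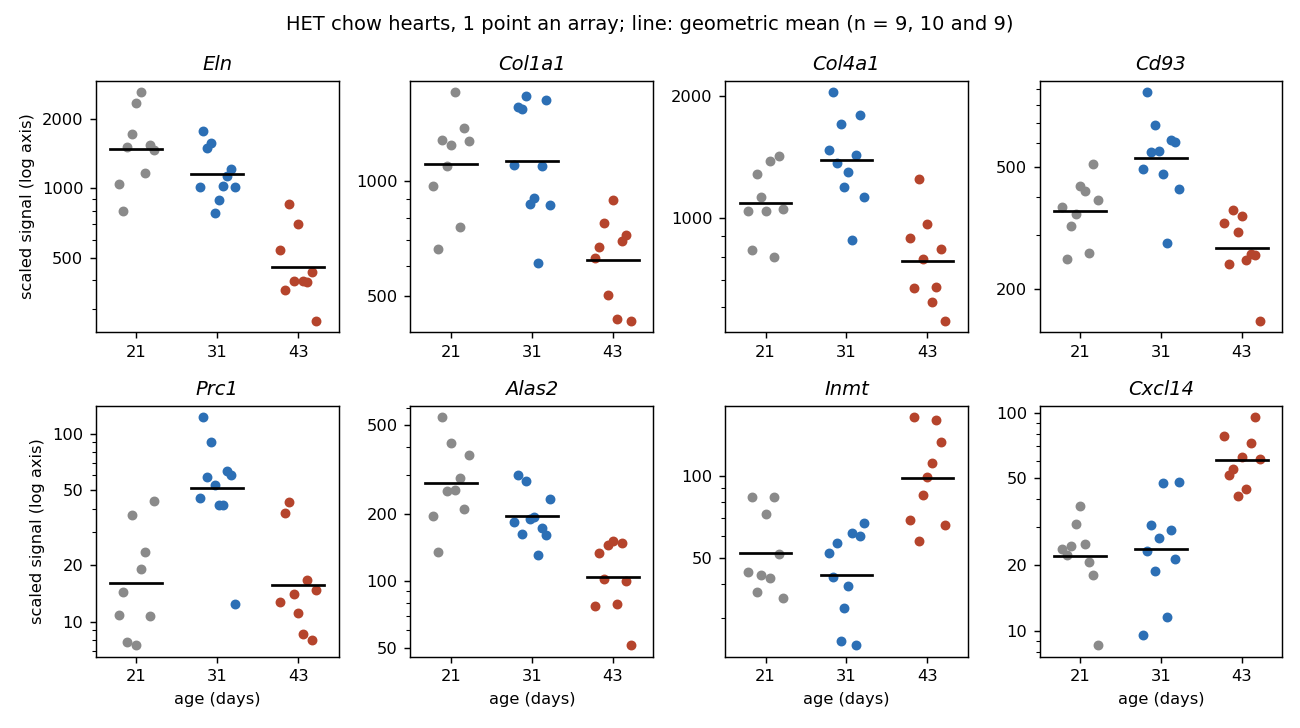
Scaled signal (log axis) of 8 genes in each HET chow heart at 21, 31 and 43 days; points are arrays and lines geometric means (n = 9, 10 and 9). Eln is at most 852 in every 43-day heart, and Cxcl14 is at least 41.4 in every 43-day heart.

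Markers of endothelium, the lining of vessels, leaned the same way with few calls. Of 17 tested markers 2 fell (Cldn5 and Tek), 15 lay below 0, and the median was -0.28. Among all genes 1.13% were called lower, 68.2% lay below 0 and the median was -0.10. The summed marker signal was 3166 to 7129 (median 4853) at 43 days and 4102 to 6751 (median 5585) at 31 days. Cldn5, the claudin of endothelial tight junctions, had signals of 14.4 to 129 (median 34.8) at 43 days and 47.2 to 213 (median 105) at 31 days, a difference of -1.37 ± 0.30 (adjusted p = 0.00593). Tek, the receptor of angiopoietins, differed by -0.52 ± 0.13 (adjusted p = 0.0234), and its call ended without 1 of 6 arrays, with an adjusted p of up to 0.0782. Cdh5, Pecam1, Vwf and Eng, which define the cell type, did not pass, at -0.37, -0.29, -0.03 and -0.07. Outside the list, Cd93, a lectin-like receptor of endothelial and myeloid cells, had signals of 158 to 362 (median 261) at 43 days and 284 to 878 (median 561) at 31 days. In 9 of 10 younger hearts Cd93 lay above the highest older heart, and the difference was -0.98 ± 0.15 (adjusted p = 1.79e-05). Emp1, a small membrane protein, fell by 0.73 on the log2 scale (SE 0.16, adjusted p = 0.00449), with 315 to 672 (median 516) at 43 days and 547 to 1385 (median 891) at 31 days.

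Most genes of cell division lay lower in the older hearts, and a few of them passed the test. Of 33 tested cell-cycle genes 4 fell (Prc1, Nusap1, Kif22 and Ccnb2) and none rose, where 1.13% of all genes were called lower. Of the 33, 28 lay below 0, as did 68.2% of all genes. The list's median was -0.52, against -0.10 for all genes. Prc1, which bundles microtubules in the spindle midzone, had signals of 8.02 to 43.3 (median 14.0) at 43 days and 12.5 to 122 (median 56.1) at 31 days, a difference of -1.72 ± 0.42 (adjusted p = 0.0156). In 7 of 10 younger hearts Prc1 exceeded every older heart. Nusap1, a spindle-assembly protein, had 6.08 to 26.8 (median 15.6) at 43 days and 20.9 to 71.1 (median 46.3) at 31 days, a difference of -1.58 ± 0.35 (adjusted p = 0.00593). Kif22, a chromosome-bound kinesin, fell by 0.97 on the log2 scale (SE 0.22, adjusted p = 0.00903), and Ccnb2, which encodes cyclin B2, by 0.59 (SE 0.14, adjusted p = 0.0148). All 4 had a lower median at 21 than at 31 days, so their levels did not fall steadily with age. Mki67, the common marker of cycling cells, was at 0.04 (adjusted p = 0.941), and Cdk1, the mitotic kinase, at -1.42 (adjusted p = 0.0594). Without the second 31-day heart Prc1 had an adjusted p of 0.058, Kif22 of 0.0516 and Ccnb2 of 0.0681, while Nusap1 stayed below 0.05 in all 19 refits. On the deposited signals without scaling none of the 4 passed. Their adjusted p were then 0.0866 for Prc1, 0.0684 for Nusap1, 0.176 for Kif22 and 0.431 for Ccnb2. Uhrf1, which guides maintenance DNA methylation during replication and was not on the list, had signals of 8.91 to 25.9 (median 16.8) at 43 days and 17.7 to 57.0 (median 39.8) at 31 days, a difference of -1.23 ± 0.33 (adjusted p = 0.0387, and up to 0.0961 with 1 array left out).

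Promoters of mitotic genes are known for CCAAT boxes, bound by NF-Y, and for the cell cycle homology region, whose core is TTTGAA, bound by repressor complexes in resting cells. The promoters of Prc1 (chr7:80294201-80294450, plus strand) and Ccnb2 (chr9:70421555-70421804, minus strand) are shown as examples, picked after the search because they hold matches, of the 4 cell-cycle genes that fell, from the RefSeq promoter table (GRCm38.p6), as the 250 bases before the start, with matches to CCAAT or TTTGAA on either strand in capitals.
Prc1: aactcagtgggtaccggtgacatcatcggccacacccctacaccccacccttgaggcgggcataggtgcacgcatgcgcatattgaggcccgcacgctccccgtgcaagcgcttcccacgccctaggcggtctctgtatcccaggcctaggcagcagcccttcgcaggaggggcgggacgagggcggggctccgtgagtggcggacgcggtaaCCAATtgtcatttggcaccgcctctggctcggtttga
Ccnb2: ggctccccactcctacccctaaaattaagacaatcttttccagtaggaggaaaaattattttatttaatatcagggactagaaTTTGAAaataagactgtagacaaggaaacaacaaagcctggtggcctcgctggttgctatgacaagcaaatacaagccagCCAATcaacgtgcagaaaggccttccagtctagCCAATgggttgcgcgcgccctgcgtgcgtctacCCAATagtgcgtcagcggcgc
Prc1 held 1 CCAAT and no whole TTTGAA within the 250 bases, and Ccnb2 held 3 CCAAT and 1 TTTGAA. The Prc1 window ends in tttga, and a match running past its last base was not searched for. Of the other 2 that fell, Kif22 held 2 of each, and Nusap1, which kept its call in all 19 refits, held neither. The table had 27 of the 33 cell-cycle genes, of which 19 (70.4%) held CCAAT, 10 (37%) TTTGAA and 9 (33.3%) both. Among all 27025 genes of the table the shares were 34.5%, 16.3% and 5.76%. These matches describe the letters of the windows and were not tested for binding.

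Some red cell transcripts were lower in the older hearts. Whole hearts contain blood, and young red cells still carry globin mRNA. Of 10 tested erythroid markers 3 fell (Hba-a1, Hbb-b2 and Alas2), 9 lay below 0, and the median was -0.49. The shares over all genes were 1.13% called lower and 68.2% below 0, with a median of -0.10. Alas2, the first enzyme of heme synthesis in red cell precursors, had signals of 51.4 to 151 (median 103) at 43 days and 130 to 298 (median 186) at 31 days, a difference of -0.91 ± 0.21 (adjusted p = 0.00759). In 9 of 10 younger hearts Alas2 lay above the highest older heart. The alpha globin Hba-a1 differed by -0.71 ± 0.16 (adjusted p = 0.00903, and 0.0565 without the ninth 43-day heart) and the beta globin Hbb-b2 by -0.87 ± 0.19 (adjusted p = 0.00745). Both have near-identical copies, so the probe sets may read more than 1 gene. On the deposited signals without scaling Hba-a1 and Hbb-b2 passed and Alas2 did not (adjusted p = 0.0684). The summed erythroid signal was 3517 to 8778 (median 6539) at 43 days and 6890 to 13702 (median 10076) at 31 days. How much blood each heart held was not measured.

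Among 28 tested genes of MHC class I and the interferon response, 2 fell and none rose, with a median of -0.20. Of all genes 1.13% were called lower, and their median was -0.10. Rsad2, the antiviral enzyme viperin, had signals of 4.52 to 29.1 (median 11.5) at 43 days and 19.8 to 58.4 (median 39.5) at 31 days, a difference of -1.52 ± 0.33 (adjusted p = 0.00593). Isg15, a ubiquitin-like interferon-induced protein, had 19.7 to 101 (median 87.1) at 43 days and 87.4 to 168 (median 125) at 31 days, a difference of -0.87 ± 0.23 (adjusted p = 0.0341, and up to 0.153 with 1 array left out). At 43 days 1 of 9 Rsad2 values was at the floor. On the deposited signals without scaling neither gene passed, with an adjusted p of 0.06 for Rsad2 and 0.267 for Isg15. Other interferon targets did not pass, such as Ifit1 at -0.44, Irf7 at -0.14 and Mx2 at -0.03. Interferon-stimulated genes carry a response element approximated here by GAAA, any 2 bases and GAAA again; the promoters of Rsad2 (chr12:26456453-26456702, minus strand) and Isg15 (chr4:156200819-156201068, minus strand), the called pair, are shown in the same way with matches on either strand in capitals.
Rsad2: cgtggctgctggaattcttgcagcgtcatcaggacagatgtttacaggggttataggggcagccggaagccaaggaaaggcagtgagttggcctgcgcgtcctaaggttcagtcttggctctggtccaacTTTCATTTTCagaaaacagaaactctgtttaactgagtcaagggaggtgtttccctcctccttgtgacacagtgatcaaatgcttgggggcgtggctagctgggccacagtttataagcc
Isg15: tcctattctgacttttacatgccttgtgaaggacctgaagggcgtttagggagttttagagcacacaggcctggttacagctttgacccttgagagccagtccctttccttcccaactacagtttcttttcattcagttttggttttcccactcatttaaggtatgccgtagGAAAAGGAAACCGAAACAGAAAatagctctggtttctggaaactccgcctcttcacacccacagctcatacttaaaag
Rsad2 held 1 match and Isg15 held 3 that overlap one another. Of the 24 interferon list genes in the table, 9 (37.5%) held a match, against 3.05% of all genes in it.

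The 9 genes that were higher at 43 days share no list. Gsta3, a glutathione S-transferase, had signals of 5.68 to 61.0 (median 44.8) at 43 days and 4.95 to 23.9 (median 7.01) at 31 days, where 3 of 10 hearts were at the floor. In 8 of 9 older hearts Gsta3 exceeded every younger heart, and the difference was 1.93 ± 0.40 (adjusted p = 0.00346). Cxcl14, a chemokine that attracts monocytes and dendritic cells, had 41.4 to 95.5 (median 61.0) at 43 days and 9.53 to 47.8 (median 24.9) at 31 days, a difference of 1.36 ± 0.31 (adjusted p = 0.00745). Inmt, a methyltransferase of indolamines, had 57.6 to 165 (median 98.7) at 43 days and 23.7 to 66.9 (median 47.0) at 31 days, a difference of 1.18 ± 0.26 (adjusted p = 0.00593). For both Cxcl14 and Inmt, 7 of 9 older hearts lay above every younger heart. Ksr1, a scaffold of the RAF and MEK kinases, differed by 1.20 ± 0.27 (adjusted p = 0.00745) by its brightest probe set, while a second one gave -0.48 (p = 0.333). Gsta3, Cxcl14, Inmt and Ksr1 passed in all 19 refits. In a fit of the 2 groups alone Cxcl14 and Inmt passed, and Gsta3 and Ksr1 did not. Ksr1 also did not pass with the probe sets of a gene averaged.

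The other 5 higher genes were Rmc1, a subunit of an endosomal exchange factor (0.95 ± 0.23, adjusted p = 0.0168), the cytochrome P450 gene Cyp2a12 (0.84 ± 0.23, adjusted p = 0.0407), the iron transporter gene Slc11a2 (0.81 ± 0.22, adjusted p = 0.0413), Penk, the precursor of enkephalins (0.55 ± 0.15, adjusted p = 0.0295), and Bcl2l1, which encodes the survival protein Bcl-xL (0.50 ± 0.13, adjusted p = 0.0242). Each of these calls ended without at least 1 array: without the second 31-day heart Rmc1 had an adjusted p of 0.094 and Cyp2a12 of 0.178, without the ninth 31-day heart Slc11a2 had 0.167 and Bcl2l1 0.0656, and without the first 43-day heart Penk had 0.0826. Cyp2a12 was -0.03 within the 69-array set and 1.33 within the smaller one, and Rmc1 was 0.17 and 1.15. A second Slc11a2 probe set gave 0.13 (p = 0.367).

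Among the remaining large falls, Adam19, a membrane-bound metalloprotease needed for heart valve and septum formation, had signals of 4.52 to 66.7 (median 21.2) at 43 days and 31.1 to 174 (median 61.4) at 31 days, a difference of -1.54 ± 0.31 (adjusted p = 0.00196). Marcks, a kinase substrate that binds actin, had 77.2 to 136 (median 98.8) at 43 days and 83.6 to 312 (median 222) at 31 days, a difference of -1.06 ± 0.20 (adjusted p = 0.000818), and 9 of 10 younger hearts exceeded every older one. Both passed in all 19 refits. In a fit of the 2 groups alone Marcks passed and Adam19 did not. Casp8, the initiator caspase of death receptors, fell by 1.14 on the log2 scale (SE 0.28, adjusted p = 0.0168, and 0.0781 without the eighth 43-day heart), and Vcan, the proteoglycan versican of the matrix list, by 1.21 (SE 0.32, adjusted p = 0.0316). Single members of other lists fell: Mest of the imprinted growth genes (-0.86, adjusted p = 0.0242), Hmgcs1 of sterol synthesis (-0.59, adjusted p = 0.0396), Gja1, which encodes the gap junction protein connexin 43 (-0.46, adjusted p = 0.0156), and Pmp22 of Schwann cell myelin (-0.46, adjusted p = 0.0421). Each of these 4 calls ended without at least 1 array, with adjusted p up to 0.0959 for Mest, 0.11 for Hmgcs1, 0.0552 for Gja1 and 0.2 for Pmp22.

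The contractile and metabolic core of heart muscle gave no call. None of 24 sarcomere genes, 31 genes of fatty acid uptake and oxidation, 46 of the citrate cycle and respiratory chain or 22 of glycolysis passed, with list medians of -0.12, -0.08, -0.12 and -0.10, close to the median of all genes. At an unadjusted p below 0.05 these lists held 0, 1, 2 and 1 genes. The cardiac troponin gene Tnni3 was at -0.18 (adjusted p = 0.47), the natriuretic peptide genes Nppa and Nppb at -0.17 (adjusted p = 0.549) and -0.48 (adjusted p = 0.326), and Mlycd and Cox6a1 at -0.18 and -0.36. Pdk4, the kinase that curbs glucose oxidation, came closest, with 307 to 1052 (median 699) at 43 days and 601 to 2042 (median 1721) at 31 days, at -1.06 ± 0.31 (adjusted p = 0.0672). Markers of macrophages (15 tested), smooth muscle (14), T cells (6), B cells (9), neutrophils (6), mast cells (4), adipocytes (11), atrial muscle (8), skeletal muscle (12), lung (5) and liver (3) also gave no call, and neither did 15 ribosomal protein genes, 23 heat shock and unfolded protein genes, 18 immediate early genes or 18 glucocorticoid-responsive genes. H2-Ab1 of the MHC class II list was at 1.17 (adjusted p = 0.0788), Acta2 of smooth muscle at -0.75 (adjusted p = 0.0636), Kit of mast cells at -1.01 (adjusted p = 0.0594) and Igf2 of the growth axis at -0.49 (adjusted p = 0.0976). The 16 clock genes, whose levels depend on the hour of collection, had a median of 0.20, with 11 above 0 and 5 below. The 2 with the smallest p were among those below, Arntl at -0.88 (adjusted p = 0.232) and Clock at -0.34 (adjusted p = 0.214). Of 15 fibroblast markers, the 2 that passed were Col1a1 and Col3a1, and the median was -0.15.

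**Figure D3:**
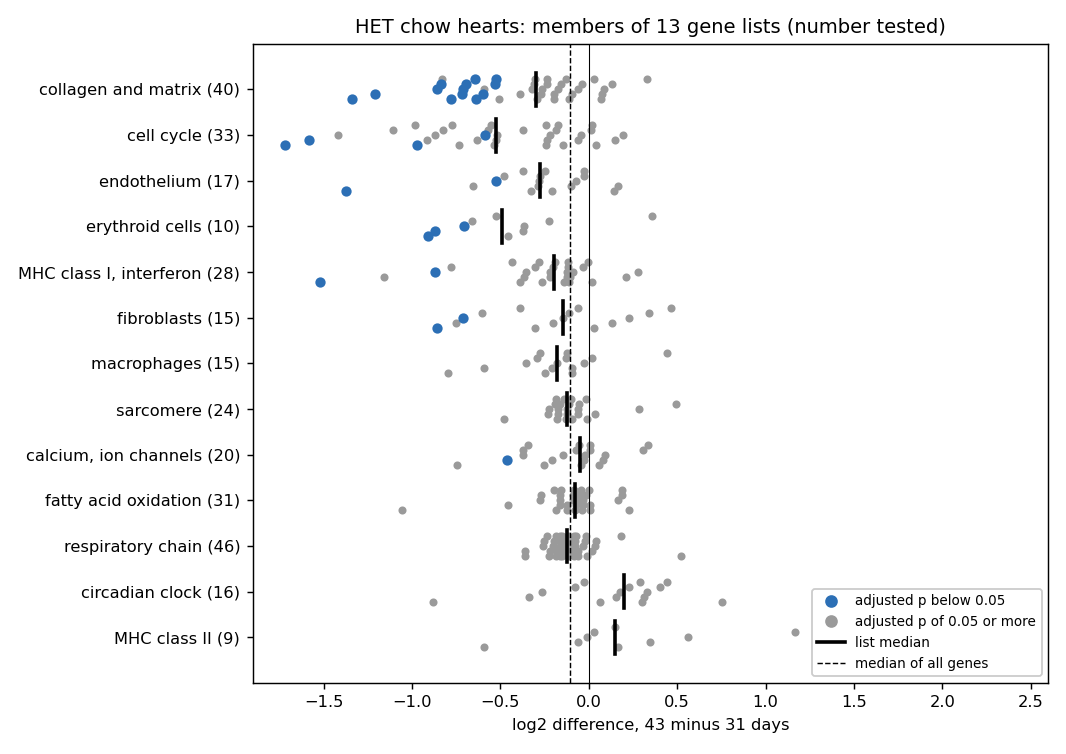
Log2 difference (43 minus 31 days) of each tested member of 13 gene lists in HET chow hearts, with the number tested in brackets. Blue points passed an adjusted p below 0.05, thick bars are list medians, and the dashed line is the median of all genes; the matrix list holds 13 blue points and the sarcomere list none.

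The 21-day hearts place these levels, and since the 31-day arrays serve both intervals they are given as levels only. Median signals of Eln were 1506, 1081 and 399 at 21, 31 and 43 days, those of Col3a1 1039, 894 and 520, and those of Alas2 257, 186 and 103. These genes were lowest at the oldest age. Prc1 had medians of 14.4, 56.1 and 14.0, Cd93 of 371, 561 and 261 and Marcks of 123, 222 and 98.8, with the highest level at 31 days. The called cell-cycle genes Nusap1 (28.8, 46.3 and 15.6), Kif22 (60.8, 84.8 and 59.0) and Ccnb2 (162, 253 and 160) were also highest at 31 days. Of the 64 genes called lower, 8 had a 21-day mean above the 31-day mean, and 55 had a 43-day mean below the 21-day mean. Cxcl14 and Inmt were alike at 21 and 31 days, with medians of 23.7 and 24.9 for Cxcl14 and of 44.2 and 47.0 for Inmt, before their 43-day medians of 61.0 and 98.7. Most other higher genes had their lowest median at 31 days. Gsta3 had 33.1, 7.01 and 44.8 at 21, 31 and 43 days, Ksr1 65.7, 19.7 and 44.8, and Rmc1 127, 51.5 and 106. Bcl2l1 had 284, 178 and 256, Slc11a2 86.1, 57.8 and 90.8, and Cyp2a12 45.6, 37.0 and 59.8. Penk, with 108, 133 and 189, was lowest at 21 days.

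The same interval was measured in mice that share none of these arrays. In dKO hearts with probucol, 4 of 5684 genes (0.0704%) passed, 3 lower (0.0528%) and 1 higher (0.0176%): Eln (-1.20 ± 0.18, adjusted p = 2.02e-05), Col1a1 (-1.03 ± 0.19, adjusted p = 0.0027), Col3a1 (-0.89 ± 0.18, adjusted p = 0.00555) and Inmt (1.35 ± 0.31, adjusted p = 0.0426). All 4 were among the 73 genes called in HET chow hearts, in the same direction. A fit of the 2 dKO probucol groups alone called 3 genes, 3 lower and 0 higher. Only 2 of the 4 were among them, and Inmt was not. Eln signals there were 291 to 415 (median 366) at 43 days and 711 to 1101 (median 768) at 31 days, without overlap, as for 7 of all genes on the lower side (0.123%). Of the 64 genes lower in HET chow hearts, 54 were below 0 in dKO probucol hearts, where 44.4% of all genes were, and their median was -0.24 against 0.03 for all genes. Of the 9 higher genes, 8 were above 0. Cxcl14 was at 1.54 ± 0.36 (adjusted p = 0.06) and Alas2 at -1.01 ± 0.24 (adjusted p = 0.0747). Of the 33 cell-cycle genes 29 lay below 0.

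In HET hearts with probucol, with 2 mice at 43 days and 3 at 31 days, Eln was 533 and 571 at 43 days and 810, 996 and 1338 at 31 days. Inmt was 135 and 167 at 43 days and 42.3, 61.3 and 107 at 31 days, and Cxcl14 was 107 and 108 at 43 days and 33.0, 36.4 and 51.1 at 31 days. The older and younger hearts did not overlap for Eln, Inmt or Cxcl14, but with so few mice 10.2% of all genes were lower and 12% higher without overlap. Of the 64 genes, 45 were below 0, where 47.1% of all genes were, and 6 of the 9 higher genes were above 0.

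The dKO hearts on chow, in which infarction and heart failure develop over these days, gave a different course. The change from 31 to 43 days differed between dKO chow and HET chow hearts for 577 genes (10.2%), 388 with the more positive change in dKO hearts (6.83%) and 189 with the more negative (3.33%). Of the 73 genes called in HET chow hearts, 41 were among them: 38 of the lower genes had a more positive change in dKO hearts and 3 of the higher genes, Inmt, Penk and Rmc1, a more negative one. These tests use the same HET arrays that chose the 73 genes, so the counts are a description. Col3a1 was at 1.46 ± 0.14 in dKO chow and -0.71 in HET chow hearts, a difference of 2.17 ± 0.21 (adjusted p = 3.18e-13), and Col1a1 at 0.92 in dKO chow and -0.86 in HET chow hearts, a difference of 1.78 ± 0.23 (adjusted p = 1.14e-08). Of the 40 matrix genes, 21 had a more positive change in dKO hearts. Eln stood between, at -0.24 ± 0.14 in dKO chow and -1.34 in HET chow hearts, a difference of 1.11 ± 0.21 (adjusted p = 0.00013). Cxcl14 was higher at 43 days in both genotypes, at 1.71 ± 0.29 in dKO chow and 1.36 in HET chow hearts, and no difference between them was detected (0.36 ± 0.42, adjusted p = 0.66). None of the 33 cell-cycle genes passed the test of a difference.

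The largest differences of change between the genotypes fell on genes that did not pass in HET chow hearts. Lox, the enzyme that cross-links collagen and elastin, was at 2.33 in dKO chow and -0.83 in HET chow hearts, a difference of 3.16 ± 0.56 (adjusted p = 2.89e-05). Lox was dim in HET chow hearts, where 3 of 9 values at 43 days and 1 of 10 at 31 days were at the floor, so the size of its difference depends on the floor; a second Lox probe set gave -0.31 in HET chow hearts. Tnc, Cxcl5, Msr1 and Mmp3, genes of tissue repair and inflammation, differed by 2.79, 2.67, 2.59 and 2.56. In HET chow hearts alone they were at -0.59, -0.75, -1.19 and 0.06, and a second Msr1 probe set gave 0.02 (p = 0.939). At 43 days 3 of 9 HET chow values of Cxcl5, 2 of Msr1 and 1 of Tnc were at the floor. In the other direction, Ces1d, Fbp2, Hamp, Reln and Cyp2b10 differed by -2.30, -1.99, -1.93, -1.92 and -1.79, with adjusted p up to 0.0314, and were at 0.33, 0.14, 0.16, 1.05 and 1.15 in HET chow hearts.

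**Figure D4:**
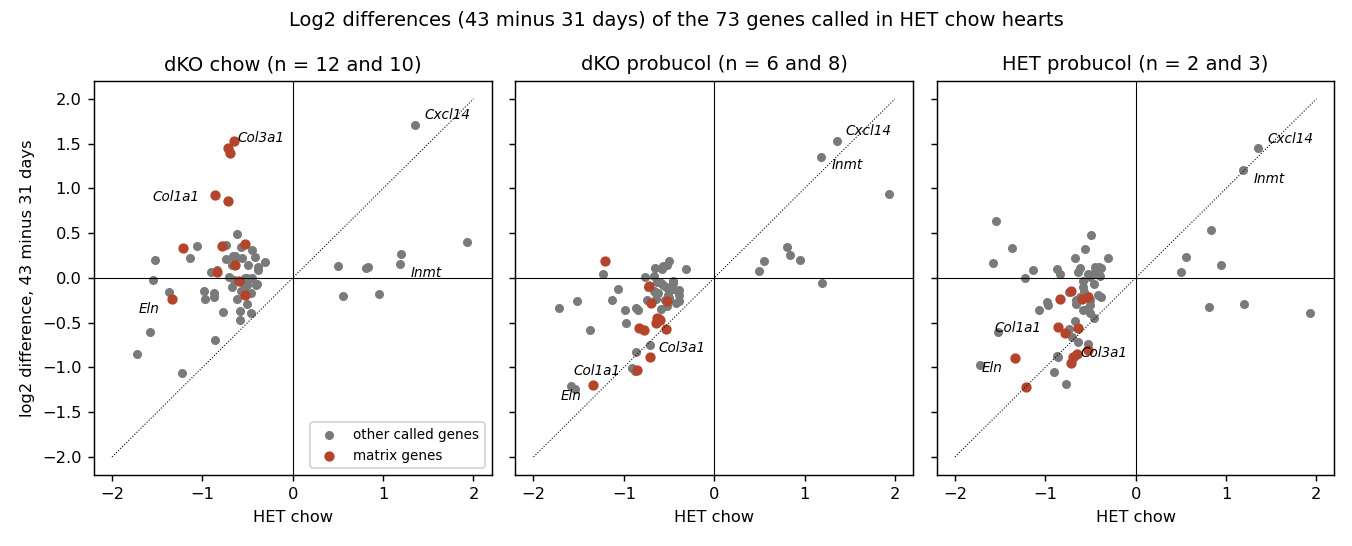
Log2 differences (43 minus 31 days) of the 73 genes called in HET chow hearts (horizontal axes) against those in dKO chow, dKO probucol and HET probucol hearts (vertical axes); red points are matrix genes and the dotted line marks equal values. Col3a1 is at 1.46 in dKO hearts on chow and at -0.89 in those given probucol, while Inmt and Cxcl14 are above 1 in both probucol groups.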

How the data were processed

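The authors deposited 1 intensity per probe set and array, made with MAS5 per the submitters' processing notes, as a table of 12488 probe sets and 88 arrays; the sources used here do not give any scaling step. The deposited intensities were raised to a floor at the 10th percentile of all values (4.22), converted to log2 and centred on each array's median. Probe sets with 1 gene symbol in the platform annotation were kept (10855), symbols were updated to RefSeq, the brightest probe set stood for each gene, and the upper 60% by mean signal left 5684 genes. In R 4.3.3, limma 3.58.1 fitted 12 groups over all 88 arrays with an intensity trend in eBayes, and contrasts gave log2 differences with Benjamini-Hochberg adjustment over all genes at 0.05. The procedure was tested on simulated data with independent noise for each gene and array. The simulation held no array sets, so it does not cover their effect on the counts. No array of the 19 duplicated another. Their number limits the precision; labels give 1 mouse per array.

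Members and gene lists were chosen with earlier results of these data known. Named genes were Scarb1 and Apoe, the 12 largest rises and falls (9 rises passed), up to 4 called members per list or the 2 with the smallest p, and the 5 largest genotype differences each way; Col4a2, Emp1, Cdk1, Mki67, Col1a2, endothelial and interferon markers were added after their values were seen. Alternatives covered scaling, floor, filters, probe set rule, arrays fitted, covariates, array weights and array sets; the promoter table was RefSeq GRCm38.p6.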

Additional observations from a re-analysis of the deposited data

Results flagged for a closer look

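Some single hearts lay apart from the rest of their group in scaled signal, by Dixon's test at its 95% critical value. Of 184 groups of values tested, 14 held such a value, and chance gives about 1 in 20. At 43 days the ninth heart was low for Cd93 (158, against 241 to 362 in the others), Col4a2 (504, against 776 to 1195) and Emp1 (315, against 465 to 672). The fourth was low for Gsta3 (5.68, against 25.6 to 61.0) and Mmp3 (5.68, against 14.5 to 32.3). The eighth was at the floor for Casp8 and Kit (4.58 for each). The sixth was low for Kif22 (13.7), the fifth for S100a8 (5.77) and the third for Ndufa1 (21.2), while the third was high for Egr1 (143). At 31 days the seventh heart was low for Vcan (21.1, against 73.1 to 137), the tenth for Prc1 (12.5, against 41.8 to 122) and the second for Fbp2 (40.6). Without the ninth 43-day heart 36 of the 73 genes stayed called, and the differences of Cd93, Col4a2 and Emp1 stayed past the threshold without it.

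The change from 31 to 43 days differed between dKO chow and HET chow hearts for 39 of the named genes, 20 of which had also passed between 43 and 31 days in HET chow hearts. On the log2 scale, dKO minus HET, the matrix genes among these 20 were at 2.17 for Col3a1, 1.78 for Col1a1, 1.54 for Vcan, 1.14 for Sparc, 1.11 for Eln, 0.90 for Col4a1 and 0.56 for Col4a2. Vessel, blood and other membrane or signalling genes were at 1.72 for Rsad2, 1.53 for Adam19, 1.43 for Marcks, 1.36 for Casp8, 1.22 for Cldn5, 1.11 for Emp1, 0.97 for Alas2, 0.84 for Cd93, 0.77 for Pmp22 and 0.72 for Hba-a1. The genes higher at 43 days in HET hearts were at -1.13 for Rmc1, -1.03 for Inmt and -0.75 for Penk. Among the 19 that had not passed in HET chow hearts, the change was more positive in dKO hearts by 3.16 for Lox, 2.79 for Tnc, 2.67 for Cxcl5, 2.59 for Msr1, 2.56 for Mmp3, 2.09 for Ctss, 2.00 for S100a8, 1.79 for Lgals3, 1.03 for Rpl13a, 0.99 for Egr1 and 0.64 for Nppa. It was more negative, at -2.30 for Ces1d, -1.99 for Fbp2, -1.93 for Hamp, -1.92 for Reln, -1.79 for Cyp2b10, -1.07 for Myl7, -0.75 for Casq1 and -0.56 for Cyp2e1. All 39 adjusted p were below 0.05, the highest being 0.0492 for Inmt.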

How the results depend on the processing

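The count of 73 genes between 43 and 31 days moved by more than 1.5 times under 10 of the alternatives. It was 18 on deposited signals without centring (7 higher, 11 lower), 38 after quantile normalization, 16 in a fit of the 2 groups alone, 40 with the array median signal as a covariate, 47 with the array set as a block, 3 in the larger array set (Cd93, Col4a1 and Eln), 0 in the smaller one, 47 with a 1.5-fold minimum, and 40 with array set and median signal together, an alternative chosen after seeing the data. In the smaller array set, limma called 0 genes with 3 arrays at 43 days and 6 at 31 days. Leaving out 1 array gave 31 to 167; the count was 31, 32, 34 and 167 without 31-day hearts 2, 4, 9 and 7, and 112 and 37 without 43-day hearts 4 and 9. All 64 lower genes stayed below 0 within both array sets, and 8 and 9 of the 9 higher genes above 0. Cyp2a12 turned to -0.0283 in the larger set. Both sets are parts of the arrays that chose the 73 genes, so these signs are a description and no separate support. Cd93, Col1a1, Col4a1, Cxcl14, Eln, Emp1, Inmt and Marcks passed with the set block, in the 2 groups alone, after quantile normalization and without centring.

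The replicate numbers did not pair the hearts, since deviations of same-numbered hearts correlated at -0.18 to 0.23; a fit of the 2 groups alone, which gave 16 genes, gave 2 (Eln and Prc1) once a replicate block was added. The 577 genes whose change differed between genotypes became 903 after quantile normalization (436 and 467), 891 with array weights and 384 in the larger array set; the smaller set could not be run, as it holds no dKO chow heart at these ages. The 4 genes of dKO probucol hearts became 9 after quantile normalization, 2 with probe sets averaged per gene, 18 with array weights and 8 with the array median signal as a covariate. The cause of these shifts was not tested.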
